A study of Mus musculus with 18 samples.

Results

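The regions described here are 1436 stretches of mouse chromatin that were scored as open to the nuclease DNase I in MEL cells after 5 days in DMSO and that overlapped no site of the shared list of untreated cells. They were chosen by their measured values. A site had to lie in the list the authors made by intersecting both day 5 replicates, to carry a score of 10 or more there, and to share not 1 base with the equivalent list of day 0. The shared day 5 list holds 263887 sites, of which 49351 reached a score of 10. The 1436 selected sites are 2.91% of those 49351, and the other 47915 overlapped a shared day 0 site and serve as the comparison. That share follows from the rule, and nothing is read from it. A further 163401 day 5 sites also overlapped no shared day 0 site but scored under 10.

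MEL is a mouse erythroleukemia line, an immortal population halted at an early red cell stage, and the untreated cells (day 0) and the cells grown for 5 days in medium with 2% DMSO (day 5) come from this same line with no other genetic change named in the labels. DMSO makes these cells differentiate towards hemoglobin-making erythroblasts, and the labels report that most treated cells stained for hemoglobin. The labels give 2 biological replicates per day of DNase-seq, PU.1 ChIP-seq, stranded RNA-seq and RNA polymerase II ChIA-PET. Since all cells are of 1 line, the replicates measure the spread between cultures of that line.

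DNase I cuts DNA most readily where nucleosomes have been moved aside, so a hypersensitive site usually marks a promoter, an enhancer or another element held open by bound proteins. Inside such a site, a short stretch that is cut less than its flanks is called a footprint and is taken as the mark of a bound protein. During red cell maturation the nucleus condenses and much of the genome closes, while globin and heme synthesis genes stay active. PU.1, encoded by Sfpi1, is a transcription factor of myeloid and B cells, and its persistent expression holds MEL cells in their undifferentiated state.

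The RNA libraries matched the labelled treatment. Hba-a1, an alpha globin gene, had 426 and 280 FPKM in the day 0 replicates and 17923 and 14670 FPKM in the day 5 replicates. Alas2, the first enzyme of erythroid heme synthesis, had 19.7 and 10.7 FPKM on day 0 and 647 and 752 FPKM on day 5. Both genes were far higher in each treated culture than in each untreated one. In such bulk samples, more cells of a kind and more RNA per cell cannot be told apart. Of 8 erythroid markers, all were found, and their summed level was 1163 to 1718 FPKM on day 0 and 25155 to 29799 FPKM on day 5. Most of this sum was the globin genes Hba-a1 and Hbb-b1. Klf1 and Gata1 differed less, with 70.2 and 84.6 FPKM and 279 and 209 FPKM on day 0. On day 5 they had 127 and 121 FPKM and 359 and 407 FPKM. Summed myeloid markers were lower on day 5, with 2.99 and 5.64 FPKM against 56.7 and 102 FPKM on day 0, most of it Sfpi1. Cd68 had 1.22 and 0.766 FPKM on day 0 and 0.628 and 2.09 FPKM on day 5, overlapping values. The myeloid markers Csf1r, Mpo and Lyz2 were listed at 0 in all libraries. The lymphoid marker Cd3e was listed at 0 too, and Thy1 had 5.57 and 2.04 FPKM on day 0 and was listed at 0 on day 5. The 3 megakaryocyte markers summed to 57.3 and 17.9 FPKM in the untreated cultures and to 135 and 110 FPKM in the treated ones. After treatment most of this was Itga2b, with 104 and 92.8 FPKM, against 15.4 and 7.32 FPKM before treatment. In the untreated cultures Pf4 was the highest of the 3. Pf4 had 41.4 and 8.39 FPKM before and 28.1 and 13.0 FPKM after, overlapping values, and Gp9 had 0.546 and 2.20 FPKM before and 3.27 and 3.77 FPKM after. The part of these in the DNase results was not tested. These are levels in 2 libraries a day, given without a test.

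Most of the selected sites did not stand apart from chromatin listed as open on day 0. In 913 of them, 63.6% (95% Wilson interval 61.1 to 66.0, which covers counting error over sites only), the day 5 replicate site that holds the selected stretch also reached a shared day 0 site elsewhere along its length. These are called attached sites here. The other 523 sites, 36.4%, lay in day 5 replicate sites that touched no shared day 0 site and are called separate sites. Only 188 of the separate sites, 13.1% of all selected sites (11.4 to 14.9), also had no site in either single day 0 replicate. Of the attached sites, 378 had no site in either single day 0 replicate, so attachment alone does not show day 0 signal in the stretch itself. Since most sites were attached or had a single day 0 site, the regions are called selected sites below, not newly opened sites. The division into attached and separate uses the same site lists as the selection, so differences in DNase score between these classes are a description.

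The score in the shared list is the score of day 5 replicate 1. At all 263887 shared sites both values agreed within 0.01, so the threshold of 10 was applied to replicate 1, and the score of replicate 2 beyond its presence was not used. In replicate 1 the selected sites scored between 10.0 and 348, with a median of 17.0 and quartiles of 11.9 and 37.4. In replicate 2 the same sites ranged from 2.00 to 198, with a median of 4.05 and quartiles of 2.84 and 9.40. Sites also present on day 0 had medians of 37.2 in replicate 1 and 47.1 in replicate 2. Replicate 2 thus had the higher score at 82.8% of the sites on both days but at only 14.3% of the selected sites. A replicate 2 score of 10 or more was found at 334 selected sites, 23.3% (21.1 to 25.5), against 93.0% of the sites on both days.

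Over all selected sites, a higher score in replicate 1 did not go with a higher score in replicate 2. Among the 607 selected sites with a replicate 1 score from 10 to under 15, the median replicate 2 score was 5.84. It was 4.59 for the 229 sites from 15 to under 20, 3.54 for the 266 sites from 20 to under 40, 3.37 for the 217 sites from 40 to under 80, and 2.99 for the 117 sites of 80 or more. In the sites on both days the median replicate 2 score was higher in each higher range, at 14.9, 21.7, 36.5, 73.8 and 153. The classes differed in this. In attached sites the median replicate 2 score was nearly level over the 5 ranges, at 3.50, 3.09, 3.14, 3.30 and 2.95. In separate sites it was 9.32, 15.8 and 25.5 over the first ranges, then 23.1 in 17 sites and 83.4 in 3 sites. Attached sites made up 255 of the 607 sites in the lowest range and 114 of the 117 in the highest, so the mix of classes changed along the ranges.

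**Figure D1:**
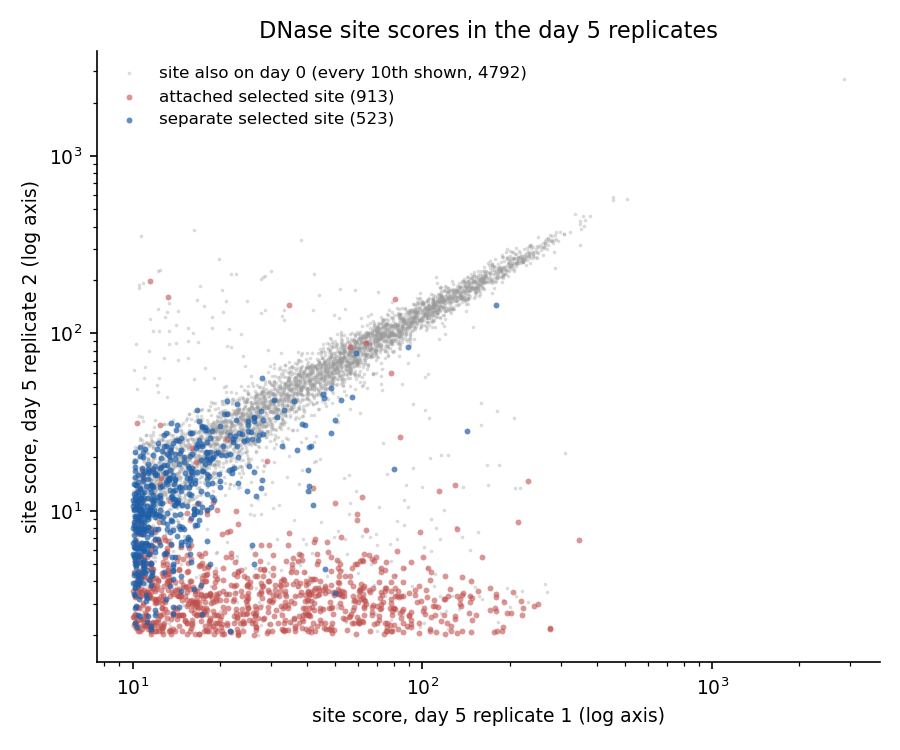
Each point is a day 5 site, with its score in replicate 1 on the horizontal and in replicate 2 on the vertical log axis, for 913 attached and 523 separate selected sites and every 10th site also present on day 0. Most attached sites lie along the bottom, with a median replicate 2 score of 3.25, while most separate sites follow the diagonal band of the sites on both days.

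Attached sites were the ones on which the day 5 replicates differed. Their replicate 1 score had a median of 24.8 and their replicate 2 score a median of 3.25, and only 34 of 913 reached 10 in replicate 2. In the 523 separate sites the medians were 12.7 in replicate 1 and 11.2 in replicate 2, with quartiles of 6.81 and 17.6 in replicate 2, and 300 of them, 57.4%, reached 10 in both. The median ratio of replicate 1 to replicate 2 was 7.65 in attached sites, 1.20 in separate sites and 0.786 in sites on both days.

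Width set the same classes apart. Selected sites had a median width of 230 bases, from 1 to 2748 bases, against 690 bases for sites on both days. An attached site had a median of 170 bases and covered a median of 12.1% of the replicate 1 site around it, whose median width was 1347 bases. It covered a median of 72.8% of its replicate 2 site, whose median width was 283 bases. In 898 of the 913 it was the replicate 1 site that reached a shared day 0 site. An attached site is thus typically a strip where a small, weak replicate 2 site meets a broad replicate 1 site, and the strip carries the score of the broad site. Separate sites had a median width of 351 bases and covered a median of 83.0% of their replicate 1 site and 96.1% of their replicate 2 site. Stretches of 50 bases or less made up 16.4% of attached sites, 4.02% of separate sites and 0.267% of sites on both days.

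Distance to the nearest shared day 0 site followed from this geometry. The median distance was 257 bases for attached sites and 7914 bases for separate sites, and 13439 bases for the 188 separate sites without any day 0 site. Of all selected sites, 9.54% lay within 100 bases of a shared day 0 site, 54.3% within 500 bases, 66.6% within 1000 bases and 77.9% within 5000 bases. Of the attached sites, 889 of 913 lay within 1000 bases, and of the separate sites 68 of 523.

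**Figure D2:**
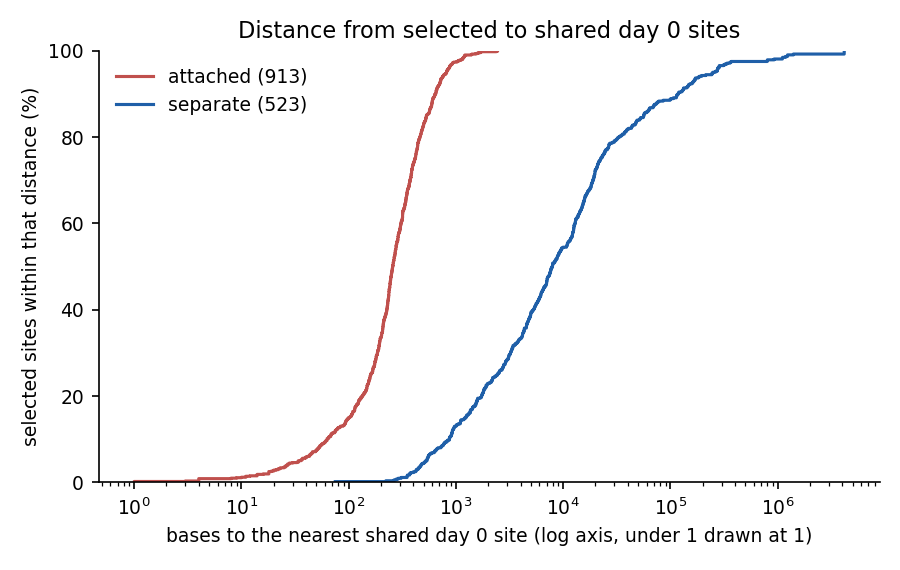
Cumulative share of selected sites, in percent, within a given distance in bases (log axis) of the nearest shared day 0 site, for attached and separate sites. The attached curve is at 82.9% by 500 bases, where the separate curve is at 4.40%.

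The sites at the threshold show what the score of 10 separates. The 5 selected sites of lowest score had 10.01 to 10.05 in replicate 1 and between 2.51 and 11.5 in replicate 2. The 5 sites just outside had 9.98 to 9.995 in replicate 1 and between 3.42 and 17.9 in replicate 2. The replicate 2 scores on either side of the threshold thus overlapped.

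Day 0 signal was present under most selected sites. A site in 1 or both single day 0 replicates lay under 870 of the 1436, 60.6% (58.0 to 63.1), although no such stretch was in the shared day 0 list. Replicate 2 alone had a site under 550 of them, replicate 1 alone under 284, and each replicate under 36, without the pair of sites meeting inside the selected stretch. In 566 selected sites, 39.4%, neither day 0 replicate had a site. Of these 566, 378 were attached, so a day 5 site that extends from shared day 0 chromatin held them.

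**Figure D3:**
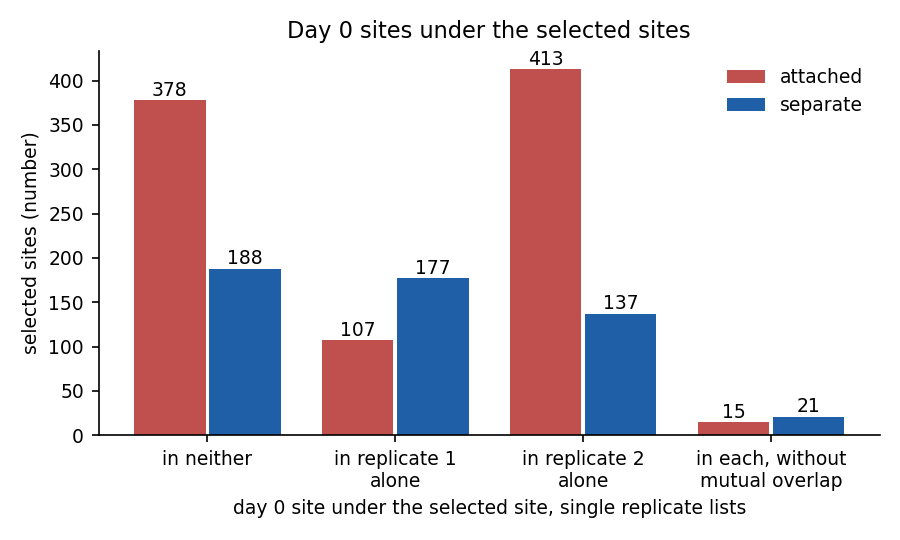
Number of selected sites by the single day 0 replicate lists that hold a site under them, for attached and separate sites. The tallest bar is 413 attached sites with a site in day 0 replicate 2 alone, and 188 separate sites have none in either replicate.

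Many of these day 0 sites reached a score of 10, though their medians were below those of sites on both days. Under selected sites the replicate 2 sites of day 0 had a median score of 31.2, against 106 at sites on both days. Among them, 347 of 586 scored 10 or more. The replicate 1 sites of day 0 had a median of 6.04, against 119 at sites on both days, and 112 of 320 scored 10 or more. Counting either replicate, 459 selected sites, 32.0% (29.6 to 34.4), had a day 0 site of 10 or more, and at 414 of them, 28.8% (26.5 to 31.2), the day 0 score was above the day 5 score. Sites on both days also scored higher on day 0 than on day 5, where their medians were 37.2 and 47.1. By these medians, a higher day 0 score is not particular to the selected sites, and the score scale is unknown. The 459 sites overlapped a listed site of 10 or more in a single day 0 replicate, so the description as newly opened is uncertain for them. Such a score belongs to the whole day 0 site, which can be broader than the selected stretch, and need not describe the selected bases. Of the 347 and 112 sites of 10 or more in day 0 replicates 2 and 1, 313 and 58 lay under attached sites.

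Attached and separate sites differed here too. In 428 attached sites with a day 0 replicate 2 site, that site had a median score of 64.8 and a median width of 1367 bases, and in 333 of them it was itself part of a shared day 0 site elsewhere. Separate sites had weaker day 0 signal. The 198 with a day 0 replicate 1 site had a median score there of 5.80, with 54 at 10 or more, and the 158 with a day 0 replicate 2 site had a median of 4.82, with 34 at 10 or more. At 29 and 17 of them the day 0 score was above the day 5 score. Most separate sites with day 0 signal thus had a day 0 score under 10 and below that of day 5.

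**Figure D4:**
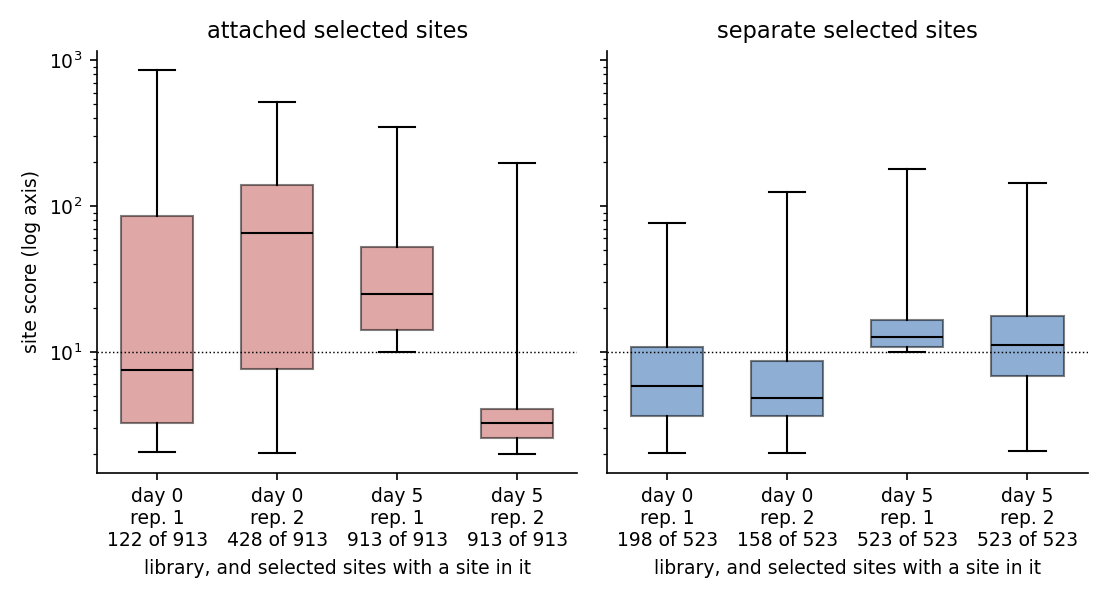
Site scores (log axis) in the 4 DNase libraries for attached (left) and separate (right) selected sites that have a site in that library, with the median, quartiles and whole range, and a dotted line at 10. Attached sites have a median of 64.8 in day 0 replicate 2 and 3.25 in day 5 replicate 2, while separate sites have medians of 5.80, 4.82, 12.7 and 11.2 from left to right.

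The 5 selected sites of highest mean day 5 score, chosen by a rule, show both classes in mm9 coordinates. At chr19:45437255-45437337, 83 bases wide, the scores were 858 in day 0 replicate 1, 348 in day 5 replicate 1 and 6.87 in day 5 replicate 2, with no site in day 0 replicate 2. Its replicate 1 site on day 0 was 3156 bases wide, and a shared day 0 site lay 27 bases away. At chr13:97157461-97157544 the scores were 519 in day 0 replicate 2, 276 in day 5 replicate 1 and 2.17 in day 5 replicate 2. At these sites the highest score was that of an untreated library.

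At chr17:56858309-56858343, 35 bases wide, day 0 replicate 2 scored 409, above 251 and 2.99 on day 5. At chr2:174243303-174243532 there was no site in either day 0 replicate, and the day 5 scores were 275 and 2.14. Only the fifth, chr8:19690639-19690968, was separate and scored alike in both day 5 replicates, with 179 and 145, but day 0 replicate 2 had a site of 125 under it and a shared day 0 site lay 75 bases away. So the top of the ranking held no site that was absent from day 0 and strong in both day 5 replicates.

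Among the 188 separate sites without any day 0 site, 90 had a score of 10 or more in both day 5 replicates, which is 6.27% of all selected sites (5.13 to 7.64). The following were chosen after their values were seen, as the ones of highest replicate 2 score. At chr14:4410201-4410460, 260 bases wide, the day 5 scores were 57.1 and 44.0. At chr3:80874460-80874610, 151 bases wide, they were 52.5 and 41.9. At chr2:128412220-128413152, a broader site of 933 bases, they were 16.9 and 32.2, and the site held 2 day 5 footprints and no day 0 footprint. The first and the second held no footprint. The nearest shared day 0 site lay 4171512, 30852 and 12910 bases from them, in the order named. Each of the 3 is scored above 10 in both treated libraries and listed in neither untreated one.

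Others were narrow. At chrX:84874320-84874336 the scores were 48.2 and 49.5 over 17 bases, and at chr13:66268429-66268465 they were 45.5 and 45.3 over 37 bases. Neither held a footprint.

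Footprints were read from the same DNase libraries as the sites, so they are not independent of the selection. A day 5 footprint lay in 227 selected sites, 15.8% (14.0 to 17.8), and a day 0 footprint in 29, 2.02% (1.41 to 2.89). Of the sites on both days, 86.4% had a day 5 footprint and 87.5% a day 0 footprint. A day 5 footprint without a day 0 footprint was found in 200 selected sites, 13.9%. Over all 49351 day 5 sites of score 10 or more this call was made in 4.28%, and nothing is read from the difference, since the rule used the same reads. The reverse call was made in 2 selected sites, and 27 had footprints on both days.

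Nearly all the footprints were in separate sites. Only 16 of 913 attached sites had a day 5 footprint, 1.75%, against 211 of 523 separate sites, 40.3% (36.2 to 44.6). The share differed little with the day 0 record of the separate sites. It was 43.5% where day 0 replicate 1 alone had a site, 42.3% where replicate 2 alone had one, and 36.2% (29.6 to 43.3) in the 188 sites without any, intervals that overlap. None of those 188 had a day 0 footprint, a count of 0 that allows up to 1.60%.

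**Figure D5:**
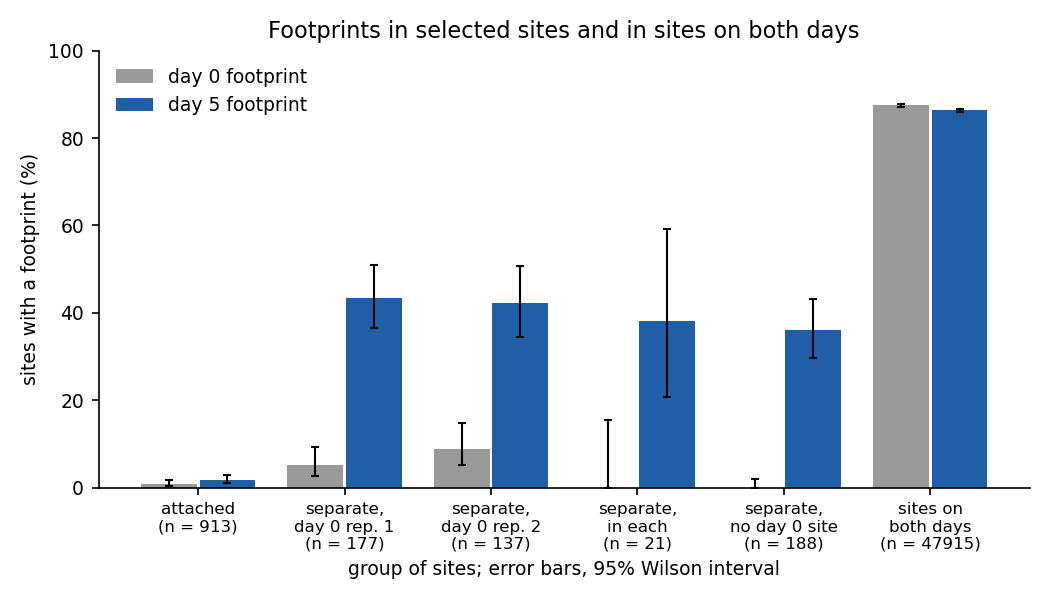
Share of sites, in percent, that overlap a day 0 or a day 5 footprint in attached sites, in 4 classes of separate sites and in sites on both days, with 95% Wilson intervals. Day 5 shares are 1.75% in attached sites, between 36.2% and 43.5% in separate sites and 86.4% in sites on both days.

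Footprints are found more readily where cutting is dense, so sites of alike score were set side by side. Where both day 5 replicates scored from 10 to under 20, 92 of 171 separate sites had a day 5 footprint, 53.8% (46.3 to 61.1), against 65.8% (64.6 to 66.9) of 6484 sites on both days. The separate sites were narrower, with a median of 376 against 446 bases, and held 1.52 footprints per kilobase against 1.34. Where both scored from 20 to under 40, 26 of 38 separate sites had one, 68.4% (52.5 to 80.9), against 94.1% (93.4 to 94.6), and the density was 1.95 against 2.11 per kilobase. Day 0 footprints lay in 10 of the 171 separate sites and in 72.2% of the 6484. At matched scores, then, the separate sites came closer to the comparison sites in day 5 footprints than over all scores. Matching on day 5 scores leaves the day 0 part of the rule in place, so nothing is read from the difference in day 0 footprints.

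The footprints in selected sites had weaker scores. A footprint score is negative, starts at -20, and is lower for a stronger footprint. The strongest footprint of a selected site had a median score of -34.5, against -146 in sites on both days, and 96 of 227 selected sites with a footprint, 42.3%, had one of -40 or lower, against 83.3% of the sites on both days with a footprint. At matched site scores the gap was smaller, with medians of -33.2 in separate sites and -41.8 in sites on both days where both replicates scored from 10 to under 20, and of -55.2 and -77.3 from 20 to under 40. The 5 strongest were all in separate sites. At chr17:83509206-83509796 the footprint scored -219, with site scores of 49.8 and 32.7 on day 5 and 6.06 in day 0 replicate 1. At chr11:31457475-31458183 the footprint scored -215, with site scores of 30.7 and 42.0 on day 5 and 16.7 in day 0 replicate 1, and a day 0 footprint was present.

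The next were chr6:37577107-37577636 with a footprint of -141, chr8:11703212-11703805 with -139, and chr7:136613030-136613358 with -135. All 5 scored 11.8 or more in both treated libraries, and all 5 also had a site in exactly 1 untreated library, from 6.06 to 21.9. Without any day 0 site, the strongest footprint was -79.8, at chr19:18995807-18996052, where the day 5 scores were 20.0 and 14.7.

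PU.1 peaks come from another assay and were not used in the selection. The merged day 5 list of 3530 peaks had none in the 1436 selected sites, a count of 0 that allows a share of up to 0.209%, against 4.54% of the sites on both days. The merged day 0 list of 14064 peaks overlapped 2 selected sites, 0.139% (0.0382 to 0.506), against 11.9% of the sites on both days. This share was lower in narrow sites. Under 200 bases it was 2.43% in sites on both days and 0% in selected sites. From 200 to under 400 bases it was 4.29% and 0.368%. A merged peak on day 5 and not on day 0 was called in 0.28% of all day 5 sites of score 10 or more, and in none of the selected sites. A peak on day 0 and not on day 5 was called in 7.47% of all, and in 2 selected sites. Selected sites thus carried hardly any PU.1 on either day.

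In the single libraries the counts of selected sites with a PU.1 peak were 12 and 13 before treatment, and 0 and 3 after it. The mean was 12.5 ± 0.707 (SD, n = 2) on day 0 and 1.5 ± 2.12 (SD, n = 2) on day 5, a difference of -11.0. The days did not overlap, and the exact two-sided permutation test of 2 against 2 libraries gave p = 0.333, the smallest it can give. The whole peak lists were shorter on day 5 as well, with 10714 and 18614 peaks against 34590 and 46077. Sfpi1, the gene of PU.1, had 55.4 and 101 FPKM in the untreated cultures and 2.37 and 3.55 FPKM in the treated ones, and the part of this in the counts was not tested. Among the sites on both days, 23.2% and 31.3% had a day 0 peak in the single libraries and 11.8% and 18.3% a day 5 peak.

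Both selected sites with a merged day 0 peak were attached. At chr11:48593618-48593831 the peak had a fold enrichment of 17.2 and 16.0 in the day 0 replicates, as the authors' caller gave it, and the DNase scores were 100 in day 0 replicate 2, 71.0 in day 5 replicate 1 and 2.56 in day 5 replicate 2. At chrX:130652497-130652810 the fold enrichment was 3.35 and 3.14. The 3 sites with a peak in day 5 replicate 2 were chr15:42089746-42090215, chr5:15126677-15126807 and chr5:30655421-30656313, with fold enrichments of 5.90, 2.12 and 3.43. The shares also differed where day 5 scores were matched. Of 171 separate sites with both day 5 scores from 10 to under 20, none had a merged PU.1 peak of either day, which allows up to 1.75%, while 11.2% of the 6484 sites on both days had a day 0 peak and 3.49% a day 5 peak. This match leaves the day 0 part of the rule in place. It also leaves the median widths unequal, at 376 against 446 bases, so nothing is read from the difference.

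Contacts were given as edges between vertices, which are regions of at least 1 kb that the authors built from DNase sites and from published polymerase and cohesin peaks. A 1 kb vertex covered 879 selected sites, 61.2% (58.7 to 63.7), and 98.2% of the sites on both days. The share was 81.1% in separate sites, so attached strips more often fell outside the 1 kb vertices. With 3 kb vertices the order was reversed, at 94.1% of attached and 85.7% of separate sites. A further list of 1 kb regions from DNase, cohesin and polymerase covered 80.9% and 81.6%. In 447 of the 879 sites in a 1 kb vertex, that vertex also held a shared day 0 site.

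An edge on day 5 was listed for the vertices of 14 selected sites, 0.975% (0.582 to 1.63), and an edge on day 0 for 8, 0.557% (0.283 to 1.10). Of the sites on both days, 13.2% had a day 5 edge and 12.8% a day 0 edge. An edge on day 5 and not on day 0 was found for 11 selected sites, 0.766%, against 4.96% of all day 5 sites of score 10 or more. The reverse was found for 5 selected sites, 0.348%, against 4.58%, and 3 had edges on both days. With 1 kb vertices, gains and losses were thus both few, and under their share over all sites. Only 61.2% of selected sites lay in a 1 kb vertex, against 98.2% of the sites on both days, and a site outside cannot have an edge. In sites on both days the day 5 edge share was 3.90% at scores from 10 to under 15 and 30.7% at 80 or more. The lower shares are therefore not read as a trait of the selected sites. With 3 kb vertices, which reach further beyond a site, 8.43% of selected sites had a day 0 edge and 9.12% a day 5 edge, against 30.7% and 28.2% of the sites on both days.

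Of the 14 vertices with a day 5 edge, 13 also held a shared day 0 site, so the edges cannot be assigned to the selected stretch. The exception was the vertex of chr16:34066544-34067460, a separate site of 917 bases with day 5 scores of 11.7 and 13.9 and a day 0 replicate 2 score of 5.37. It had 2 day 5 edges, to vertices 12.2 and 35.1 kb away, and no day 0 edge. The most edges were at chr17:71585990-71586311, an attached site in a vertex with 5 day 5 edges over 29.3 to 74.8 kb and no day 0 edge. Its DNase scores were 140 in day 0 replicate 2, 83.3 in day 5 replicate 1 and 3.27 in day 5 replicate 2.

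Next came chr8:124844695-124844848, in a vertex with 5 day 0 edges and 4 day 5 edges. The vertices of chr8:123002539-123002555 and chr3:95098671-95099005 had 2 day 5 edges each and no day 0 edge. All 24 day 5 edges of these vertices stayed within a chromosome, with a median length of 30.3 kb. Among the separate sites 1 of 523 had a day 5 edge and none a day 0 edge. Where both day 5 scores were from 10 to under 20, 1 of 171 separate sites had a day 5 edge, 0.585%, against 3.12% of the sites on both days.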

How the data were processed

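DNase sites were deposited as 1 list per replicate and 1 shared list per day, each site with a score of the authors, on a scale the sources used here do not give. The lowest score in any of these lists was 2.00. Footprints and edges carry scores of the authors as well, and 1 list of each was deposited per day. PU.1 peaks of each replicate were deposited with the fold enrichment (ratio) and −log10 p-value of the authors' caller, and merged peaks with a score and an irreproducible discovery rate, per the file headers. RNA values were deposited by the authors as FPKM. Bowtie 1.0.0 and MACS2 2.0.10 are named for PU.1, Bowtie and bedtools without versions for DNase-seq, and mm9 for the coordinates, per the submitters' processing notes. Read depth is unknown for all of these lists. The PU.1 input libraries were not used here, and 1 planned marker gene is not reported here.

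Groups and replicates came from the sample titles. Overlaps of at least 1 base were counted in Python 3.11.15 with pandas 2.3.3 and numpy 2.4.6, with functions tested on simulated regions. The score of a site in a single replicate is the highest of the sites that overlap it there. Shares carry 95% Wilson intervals from scipy 1.17.1, which treat sites as independent and hold no error between cultures. A count of 0 allows up to 3 counts of the total. PU.1 counts per library were compared by an exact permutation test. Named sites were the 5 with the highest mean day 5 score, the 5 with the strongest day 5 footprint, the 5 with the most day 5 edges, and those with the highest merged day 5 PU.1 peak, of which there were none. Any others were chosen after their values were seen. The sites, gene markers and lists were chosen with earlier results of these data known. No genome or annotation of mm9 was used, so no sequence is shown, sites were not assigned to genes, and the planned test of RNA from genes near the sites was not run. No per-sample column was left out (0 unused).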

Additional observations from a re-analysis of the deposited data

How the results depend on the processing

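The count of 1436 selected sites depended on the score and on the replicate lists. It was 27584 at a score of 5 or more, 600 at 20 or more, 334 with 10 or more in both day 5 replicates, 479 with no shared day 0 site within 1 kb and 566 with no site in either single day 0 replicate. With 1 DNase library left out, so that the other list stood for its day, it ranged from 551 (without day 5 replicate 2) to 1116 (without day 0 replicate 2), with 791 without day 5 replicate 1 and 850 without day 0 replicate 1. Alternatives added after seeing the data gave 523 separate sites and 188 separate sites without any day 0 site.

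In the order of score 5 or more, score 20 or more and 10 or more in both replicates, the share with a single day 0 site was 34.8%, 63.2% and 71.0%, that with a day 5 footprint 2.71%, 8.33% and 52.7%, and that with a day 5 edge 0.149%, 1.83% and 0.299%. Without shared day 0 sites within 1 kb, 37.4% had a day 5 footprint and 0.209% an edge. In separate sites alone, 64.1% had a single day 0 site, 40.3% a footprint and 0.191% an edge, and in those without any day 0 site 36.2% and 0%. With the replicate 2 score in place of replicate 1, 63.9% had a single day 0 site and 19.5% a footprint. Footprints of -40 or lower lay in 6.69%, and 3 kb vertices gave day 5 edges to 9.12%, against 28.2% of sites on both days. Merged day 0 PU.1 peaks were at 0% with 10 or more in both replicates, without shared day 0 sites within 1 kb, in both sets of separate sites and with equal numbers of top peaks. A peak in either day 0 replicate lay in 1.11%, and single day 0 libraries gave 0.836% to 0.905%, day 5 libraries 0% to 0.209%. With replicate numbers as a block, the difference in PU.1 counts was -11.0 (exact permutation p = 0.5, the smallest 2 pairs can give). Alternatives for the RNA test were not run, as sites were not assigned to genes. Depth is unknown, so a missing site cannot be told apart from one too shallow to call.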

Other observations

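Selected sites were unevenly spread over the chromosomes. They made up 1.47% of day 5 sites of score 10 or more on chromosome 10 and 5.68% on chromosome 12, where 116 of 2041 were selected. Chromosome X had 66 of 1484, 4.45%, and 44 of these were separate. By windows of 1 Mb, 449 of 767 windows with any selected site held exactly 1, while 37 windows with 5 or more held 281 of the 1436. The fullest windows, with 25 and 20 selected sites, were chr12:116000001-117000000 and chr12:114000001-115000000 (mm9), and the window between them held 10. Together the stretch chr12:114000001-117000000 had 55 selected sites beside 99 sites on both days. Of these 55, 38 were separate, 21 had no day 0 site in either replicate and 7 had a day 5 footprint. None had a merged PU.1 peak or a day 5 edge. Their replicate 1 scores ran from 10.1 to 232 with a median of 13.1, and their replicate 2 scores from 2.10 to 14.7 with a median of 6.83. Other full windows were chr1:85000001-86000000 with 15 selected sites, all separate, beside 18 on both days, chr5:94000001-95000000 with 15 beside 20, and chr3:93000001-94000000 with 14 beside 20. These windows were picked for their counts and carry no test. Among separate sites, 114 of 523 lay within 1000 bases of another separate site.

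The mirrored rule gave more sites. Of 73458 shared day 0 sites with a score of 10 or more, 10837, 14.8%, overlapped no shared day 5 site, against 2.91% in the direction of gain. The single lists, which involve no intersection, showed this too. Of the sites of score 10 or more, 8.0% to 9.12% in a day 0 library had no site in a given day 5 library, and 0.761% to 1.10% in a day 5 library had none in a given day 0 library. Between the untreated replicates the share was 1.08% and 1.53%, and between the treated replicates 0.175% and 0.272%. The day 5 lists were longer, with 617606 and 518066 sites against 190924 and 252611, but held fewer sites of 10 or more, 45756 and 49959 against 70618 and 70379. The part of list length in these shares was not tested.

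Applying the rule to the replicate 2 score gave 1782 sites, of which 334 were also selected by replicate 1. Of these 1782, 1026 were attached, with a median score of 34.1 in replicate 2 and 3.43 in replicate 1, the reverse of the pattern under replicate 1.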
